A study of Macaca fascicularis with 24 samples.

Results

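The 10 genes described here are chaperones, folding enzymes and stress-response factors of the endoplasmic reticulum (ER): HSPA5, HSP90B1, CALR, CANX, PDIA4, PDIA6, DNAJB9, XBP1, ATF4 and DDIT3. They were found by symbol in the array's annotation, which pairs 20 probe sets with 1 of these genes and no other. Each probe set is a cluster of short oligonucleotides that together are meant to read the transcript of the gene they are assigned to. Of the 20, 19 passed the filter on low values, out of 11108 that passed among 22215, and every gene kept at least 1. The second probe set of DNAJB9 fell below it. A further 2 probe sets carry the symbol of a member together with another symbol and were not used.

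Secreted and membrane proteins fold in the lumen of the ER, where chaperones bind unfolded chains, lectin chaperones hold glycoproteins and protein disulphide isomerases form and rearrange disulphide bonds. When unfolded protein accumulates, the sensors IRE1, PERK and ATF6 start the unfolded protein response. IRE1 splices the XBP1 transcript into one that encodes an active factor, PERK favours translation of ATF4 with DDIT3 (CHOP) downstream, and ATF6 induces chaperone genes. The smooth muscle cells and fibroblasts of the aortic wall export collagen and elastin through this compartment. The array reads total transcript, so neither the splicing of XBP1 nor the translation of ATF4 is measured.

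Total RNA of cynomolgus macaque (Macaca fascicularis) thoracic aortas was read on 24 single-colour human expression arrays, 6 per combination of age and sex. The study asked how aortic transcripts differ between old and young animals of each sex. The groups are old males (mean age 20 years), young males (6.6 years), old females (21.2 years) and young females (7.2 years), with no treatment or genetic change named in the labels. The labels give only these mean ages and do not say that the samples of a group are separate animals. The p-values therefore describe sample-to-sample spread, which may be technical.

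In 3 pairs of arrays (old females 1 and 4, young females 3 and 4, young males 3 and 4) the arrays were closely alike, and each pair was averaged and counted as 1 sample under its lower number. This left 21 samples: 6 old males, 5 young males, 5 old females and 5 young females. Another 6 samples stood apart and are called divergent here: old males 2 and 4, young male 1, old females 2 and 6, and young female 3. Their 7 arrays had median correlations with all other arrays of 0.81 to 0.83, against 0.88 to 0.93 on the other 17. Their 3′ actin probe set exceeded the 5′ one by 0.78 to 1.73 on the log2 scale, against -0.25 to 1.15 on the others, a ratio that grows as RNA degrades. Their spiked hybridisation controls averaged 12.8 to 14.3, against 11.2 to 12.1 on a log2 scale. Levels and changes are over all 21 samples unless said otherwise, and age changes are also given without these 6. Of 11 smooth muscle markers, 9 were measured, and their mean log2 level was between 11.8 and 14.1 in all 21 samples. The probes were designed for human transcripts and hybridised with monkey RNA, and levels are compared between samples and not between genes. All levels are quantile-normalised log2(intensity + 16) values. Each gene is described by its brightest probe set unless another is named.

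No probe set of the 10 genes differed between old and young aorta past the threshold, an adjusted p of 0.05 by limma with Benjamini-Hochberg adjustment over all 11108 probe sets. This held in males, where 0.018% of all probe sets passed, in females and in the mean of both sexes, where 0% passed, and in the difference of the age changes between the sexes, where 0% passed. At an unadjusted p under 0.05, 0 of the 19 probe sets passed in any of these 4 comparisons, against 3.36% of all probe sets in males, 2.84% in females, 4.38% in the mean of both sexes and 1.94% in the difference between the sexes. Old and young samples overlapped for all 19 probe sets in both sexes. They did not overlap for 0.666% of all probe sets in males and 0.342% in females. In a tissue sample, fewer cells of a type and less RNA per cell cannot be told apart.

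HSPA5 (BiP), the lumenal Hsp70 chaperone that also holds the stress sensors inactive, had the largest SD within groups among the brightest probe sets of the 10 genes. In males, its level had a lowest value of 10.49, a median of 12.03 and a highest value of 12.23 in the 6 old samples, against 10.70, 10.90, 11.36, 11.89 and 12.23 in the 5 young ones. In females, it was 10.86, 11.14, 11.33, 11.63 and 12.53 in old samples, against 10.67, 11.08, 11.45, 11.55 and 13.52 in young ones. The groups overlapped in both sexes, and young female 3 stood highest. The highest sample was 8.16-fold above the lowest in all 21 samples and 3.64-fold in the 15 that were not divergent. That SD was 0.79, larger than that of 87.3% of all tested probe sets. The log2 change, old minus young, was 0.27 ± 0.44 in males and -0.16 ± 0.46 in females (SE from limma). With 1 sample left out at a time, it ran from 0.092 (without young male 1) to 0.51 in males.

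Without the divergent samples, HSPA5 averaged 12.10 ± 0.10 in 4 old males and 11.59 ± 0.59 in 4 young males (SD). It averaged 11.77 ± 0.70 in 3 old females and 11.19 ± 0.40 in 4 young females (SD). The log2 change over both sexes was then 0.54 ± 0.22 (SE), with an unadjusted p of 0.0272 and an adjusted p of 0.665 by limma. With all samples it was 0.06 ± 0.32. Old female 3 was the highest of the 15 samples that were not divergent, at 12.53. Its actin ratio of 1.15 was the highest on the 17 arrays that were not divergent, and its part in the change of 0.54 was not tested.

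HSP90B1 (GRP94), the lumenal Hsp90 that folds integrins and Toll-like receptors, ran from a lowest of 9.72 through a median of 10.97 to a highest of 11.55 in old males. In young males it was 9.90, 10.65, 10.66, 10.70 and 10.94. In females it was 10.17, 10.19, 11.04, 11.25 and 11.81 in old samples, against 10.38, 10.47, 10.63, 10.97 and 11.88 in young ones. The groups overlapped. Divergent samples held the lowest value of both male groups (old male 4 and young male 1) and the highest value of 3 groups, in old male 2, old female 6 and young female 3. The log2 change was 0.29 ± 0.34 in males and 0.03 ± 0.35 in females, and it was 0.38 ± 0.37 in males and -0.05 ± 0.39 in females by the second probe set (SE). Over the 15 samples that were not divergent, it was 0.24 ± 0.21 in males and 0.21 ± 0.23 in females (SE).

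**Figure D1:**
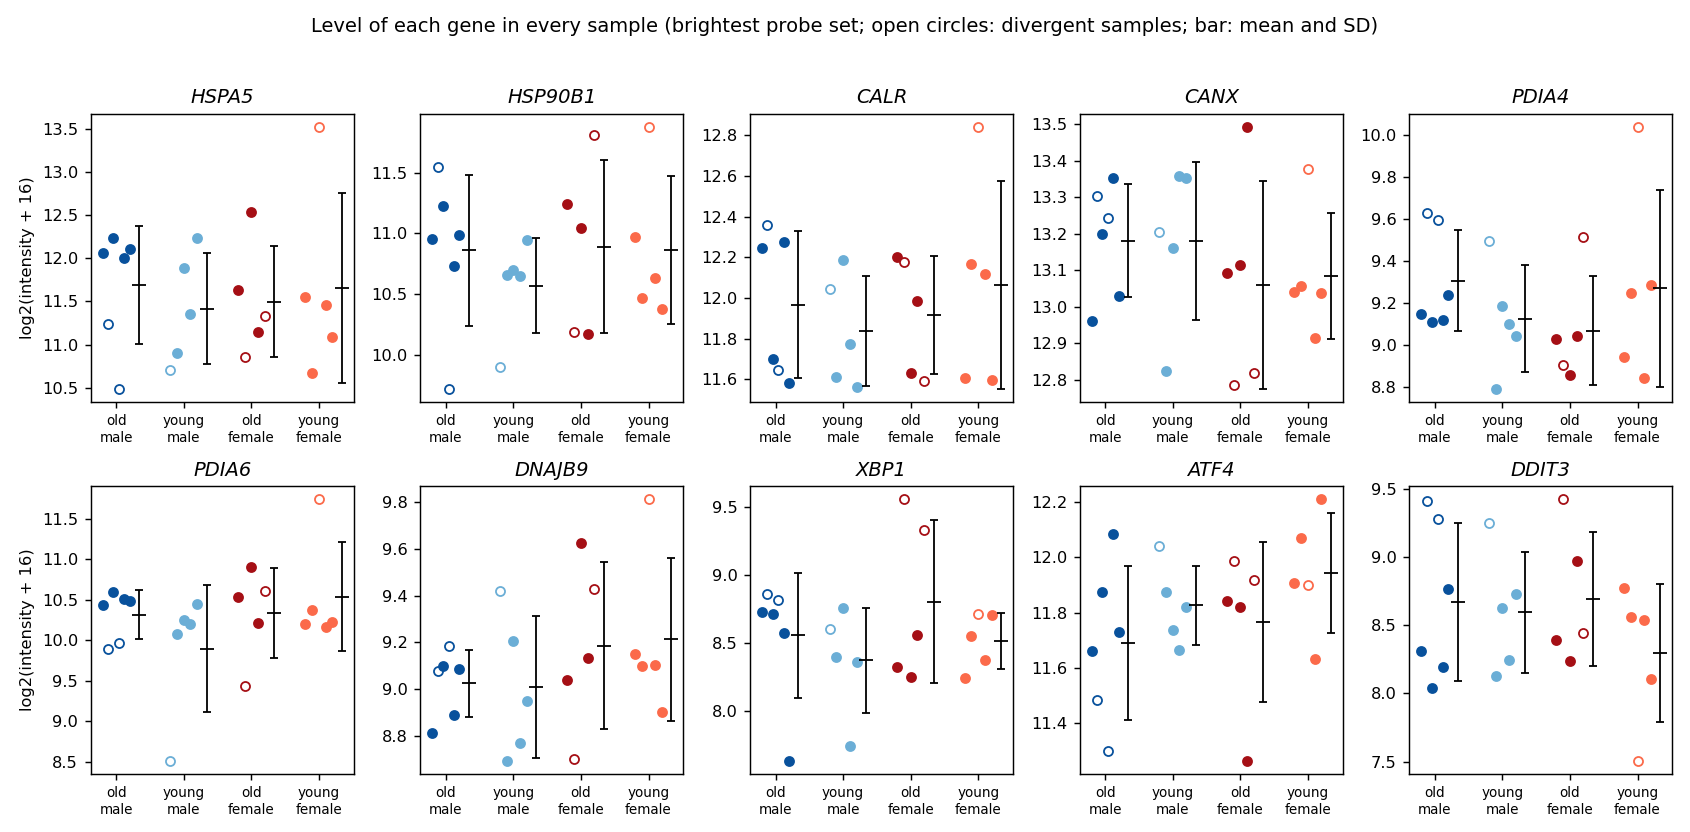
Level of the 10 genes, log2(intensity + 16) on the vertical axis, in old males, young males, old females and young females. Each circle is a sample, open circles are the 6 divergent samples, and the bar gives the group's mean and SD. The old and young circles overlap for each gene in both sexes, and the open circle of young female 3 stands highest for HSPA5, at 13.52, and lowest for DDIT3, at 7.51.

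Calreticulin (CALR) and calnexin (CANX) are the lectin chaperones that retain glycoproteins until they are folded, CALR in the lumen and CANX in the membrane. CALR averaged 11.97 ± 0.36 in old males and 11.84 ± 0.27 in young males, and 11.92 ± 0.29 in old females and 12.07 ± 0.51 in young females (SD). Its 3 probe sets gave log2 changes of 0.13 to 0.50 in males and of -0.37 to 0.28 in females, so they differed in sign in females. With the 6 divergent samples left out, the first gave 0.17 ± 0.21 in males and 0.066 ± 0.22 in females (SE). The third of them, 200935_at, ranged 16.1-fold over all samples, with young male 1 lowest at 6.54, and 3.42-fold without the divergent samples.

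Over all 21 samples, CANX had the smallest SD within groups of the 10 brightest probe sets. It averaged 13.18 ± 0.15 in old males and 13.18 ± 0.22 in young males, and 13.06 ± 0.28 in old females and 13.09 ± 0.17 in young females (SD). That SD was 0.21, and 3.75% of all tested probe sets had a smaller one. Its probe set 208852_s_at had an SD of 0.56. Over the 15 samples that were not divergent the SD of CANX was 0.19, with 12.8% of probe sets below it, and those of PDIA4 (0.16) and PDIA6 (0.18) were smaller. The 95% interval of its log2 change was -0.28 to 0.28 in males and -0.32 to 0.27 in females. When divergent samples were left out, the change was -0.039 ± 0.14 in males and 0.22 ± 0.15 in females (SE).

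PDIA4 (ERp72) and PDIA6 (P5) are disulphide isomerases of the lumen. PDIA6 ran from a lowest of 9.89 through a median of 10.46 to a highest of 10.60 in old males, against 8.51, 10.08, 10.20, 10.25 and 10.44 in young males. It was 9.44, 10.21, 10.53, 10.60 and 10.90 in old females, against 10.16, 10.20, 10.22, 10.37 and 11.74 in young females. Young male 1 and young female 3, both divergent, were the lowest and the highest of all samples, 9.35-fold apart, and the other 15 samples lay within 1.76-fold. The log2 change of PDIA6 was 0.42 ± 0.34 in males, the smallest p of the 19 probe sets there (unadjusted p = 0.232 by limma, adjusted p = 1.0), and -0.20 ± 0.35 in females (SE). In males it ran from 0.071 (without young male 1) to 0.55 when 1 sample was left out.

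Without the divergent samples, PDIA6 averaged 10.51 ± 0.07 in 4 old males and 10.24 ± 0.15 in 4 young males, and 10.55 ± 0.34 in 3 old females and 10.24 ± 0.09 in 4 young females (SD). The log2 change over both sexes was then 0.29 ± 0.11 (SE, unadjusted p = 0.0182 and adjusted p = 0.630 by limma). Its probe sets 208639_x_at and 208638_at gave 0.36 ± 0.14 and 0.33 ± 0.15, and 207668_x_at gave 0.36 ± 0.18 (SE). With HSPA5, 4 of the 19 probe sets had an unadjusted p under 0.05 in the mean of both sexes without these samples, 3 of them of PDIA6, against 6.84% of all probe sets. In females without them 1 of 19 did, PDIA6 by 208639_x_at, against 5.18% of all, in males 0 did, against 5.86%, and in the difference between the sexes 0 did, against 3.61%. None of these passed after adjustment. The 3 x_at and s_at probe sets of PDIA6 (216640_s_at, 208639_x_at and 207668_x_at) may share probes. Old female 3 was the highest of the 15 samples by each of these 3, at 10.90 by 216640_s_at, and its part in the change was not tested. By 208638_at old male 6 was the highest, at 8.93.

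PDIA4 averaged 9.31 ± 0.24 in old males and 9.12 ± 0.26 in young males, and 9.07 ± 0.26 in old females and 9.27 ± 0.47 in young females (SD). The difference between its age change in males and in females, 0.38 ± 0.30 (SE), had the smallest unadjusted p of the 19 for that difference, 0.208 by limma. Over the 15 samples that were not divergent, its change was 0.12 ± 0.14 in males and -0.10 ± 0.15 in females, and the difference was 0.23 ± 0.21 (SE). Its second probe set, 211048_s_at, ranged 16.8-fold over all samples and 7.59-fold without the divergent ones, and gave log2 changes of the opposite sign, -0.26 ± 0.55 in males and 0.17 ± 0.58 in females (SE).

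DNAJB9 (ERdj4), an Hsp40 co-chaperone that works with HSPA5 and is induced through XBP1, ran from a lowest of 8.81 through a median of 9.08 to a highest of 9.18 in old males. In young males it was 8.69, 8.77, 8.95, 9.21 and 9.42. In females it was 8.70, 9.04, 9.13, 9.43 and 9.63 in old samples, against 8.90, 9.10, 9.10, 9.15 and 9.81 in young ones. The spans of the old and young groups lay across each other, and the log2 change was 0.02 ± 0.19 in males and -0.03 ± 0.20 in females (SE). With the 6 divergent samples left out, it was 0.067 ± 0.16 in males and 0.20 ± 0.18 in females (SE). Its second probe set had a mean level of 7.01, below the filter at 7.60, and fitted without the filter it gave -0.26 ± 0.39 in males and -0.27 ± 0.41 in females (SE).

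XBP1, the factor that drives secretory-pathway genes and is abundant in plasma cells, ran from a lowest of 7.63 through a median of 8.72 to a highest of 8.86 in old males. In young males it was 7.74, 8.36, 8.39, 8.60 and 8.76. In females it was 8.25, 8.32, 8.56, 9.33 and 9.56 in old samples, against 8.24, 8.37, 8.55, 8.70 and 8.71 in young ones. The highest old female values, in samples 2 and 6, were above every young female and both came from divergent samples. The log2 change was 0.18 ± 0.27 in males and 0.29 ± 0.28 in females (SE). It was 0.098 ± 0.25 in males and -0.090 ± 0.27 in females without the divergent samples, and in males it ran from 0.025 (without young male 5) to 0.37 when 1 sample was left out. The mean log2 level of the 4 measured plasma cell and B lineage markers (of 13 listed) ranged from 6.76 to 8.30 in old males and from 6.65 to 8.39 in young males. It ranged from 7.75 to 10.30 in old females and from 7.18 to 8.84 in young females. XBP1 had r = 0.56 with this mean in the 15 samples that were not divergent, after removal of group means (permutation p = 0.10, adjusted p = 0.873). With the mean of the macrophage markers it had r = 0.38 (permutation p = 0.153, adjusted p = 0.873). Without the 2 samples farthest from the median of each marker mean, these r values were 0.60 and 0.64.

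ATF4, the factor that induces amino acid transport and synthesis genes under stress, ran from a lowest of 11.30 through a median of 11.69 to a highest of 12.08 in old males, against 11.66, 11.74, 11.82, 11.87 and 12.04 in young males. It was 11.26, 11.82, 11.84, 11.92 and 11.99 in old females, against 11.63, 11.90, 11.91, 12.07 and 12.21 in young females. Every group overlapped its counterpart. The log2 change was -0.14 ± 0.16 in males, -0.18 ± 0.17 in females and -0.16 ± 0.12 over both (SE), with an unadjusted p of 0.187 and an adjusted p of 0.984 by limma for both sexes together. When divergent samples were left out, it was 0.064 ± 0.16 in males and -0.31 ± 0.17 in females (SE).

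DDIT3, the factor that promotes cell death under lasting stress, ran from a lowest of 8.04 through a median of 8.54 to a highest of 9.41 in old males, against 8.13, 8.25, 8.62, 8.73 and 9.25 in young males. It was 8.24, 8.39, 8.44, 8.97 and 9.42 in old females, against 7.51, 8.11, 8.54, 8.56 and 8.77 in young females. In the 6 divergent samples DDIT3 was 9.41 and 9.28 (old males 2 and 4), 9.25 (young male 1), 9.42 and 8.44 (old females 2 and 6) and 7.51 (young female 3). In the other 15 it ranged from 8.04 to 8.97, so 4 divergent samples lay above that range, 1 below it and 1 inside it. The log2 change was 0.07 ± 0.30 in males and 0.40 ± 0.31 in females (SE), the smallest unadjusted p of the 19 probe sets in females (0.221 by limma). In females it ran from 0.20 to 0.52 when 1 sample was left out. Without the divergent samples, it was -0.10 ± 0.22 in males and 0.042 ± 0.24 in females (SE).

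**Figure D2:**
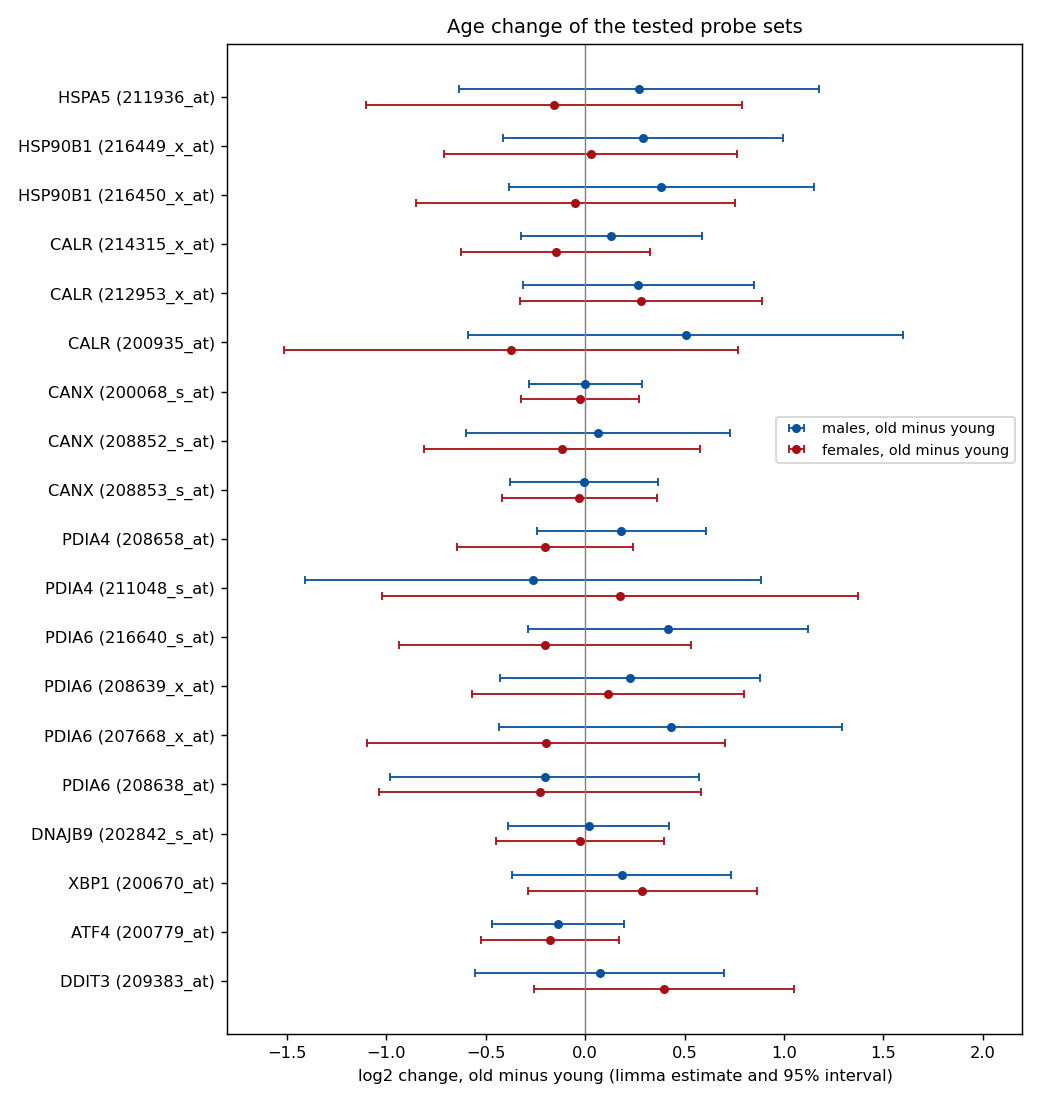
Log2 change, old minus young, of the 19 tested probe sets in males (blue) and females (red), as the limma estimate with its 95% interval on the horizontal axis. Every interval crosses 0. Their ends span -1.41 to 1.60 in males and -1.52 to 1.37 in females.

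Over the 19 probe sets, 15 had a higher and 4 a lower mean in old males than in young males, with a median log2 change of 0.18, against -0.02 over all tested probe sets. In females 6 were higher and 13 lower in old samples, with a median of -0.05, against -0.03 over all. In the mean of both sexes 10 were higher and 9 lower, with a median of 0.06, against -0.02. Over the 15 samples that were not divergent, 16 were higher and 3 lower in old males (median 0.12, against -0.0013 over all tested probe sets), and 15 were higher and 4 lower in old females (median 0.21, against -0.0092). In the mean of both sexes 16 were then higher and 3 lower (median 0.20, against -0.0047). The direction in females thus turned when 3 of the 10 female samples were left out. Probe sets of 1 gene are not independent, and these counts hold no test.

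Other genes of the pathway were counted by their brightest probe set, beside all 6943 tested genes, of which 46.6% were higher in old samples in the mean of both sexes (median log2 change -0.01). The share was 48.0% in old males and 46.3% in old females. With the 6 divergent samples left out, it was 49.7% in the mean of both sexes, 50.4% in old males and 49.0% in old females. None of these lists had a gene past the adjusted threshold in any of the 4 comparisons. Of 35 other ER chaperones and folding enzymes, 26 were tested, 13 higher and 13 lower in old samples (median 0.00), and 0 had an unadjusted p under 0.05. By sex, 16 were higher and 10 lower in old males (median 0.07), and 10 were higher and 16 lower in old females (median -0.05). When divergent samples were left out, 17 were higher in old males and 20 in old females, and 18 in the mean of both sexes (median 0.05). The smallest p-values among them belonged to ERP29 (0.21 ± 0.12 SE), UGGT1, which senses misfolded glycoproteins (0.36 ± 0.21), and MOGS, which trims their first glucose (0.22 ± 0.14). Of 12 sensors and their processing enzymes 9 were tested, 5 higher and 4 lower (median 0.01), with 3 higher in old males and 6 in old females. Without the divergent samples, 5 were again higher (median 0.05), with 4 in old males and 4 in old females. CREB3L2, a membrane-bound factor related to ATF6, gave -0.33 ± 0.16 (unadjusted p = 0.048 by limma), and NFE2L2, a factor that PERK phosphorylates, gave 0.16 ± 0.14. EIF2S1, the translation factor subunit that PERK phosphorylates, gave 0.20 ± 0.14 over both sexes, -0.07 ± 0.19 in males and 0.47 ± 0.20 in females (unadjusted p = 0.0297, adjusted p = 1.0 by limma). The difference between the sexes was -0.54 ± 0.28 (unadjusted p = 0.0643 by limma).

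Of 27 targets of ATF4 and CHOP 16 were tested, 7 higher and 9 lower in old samples (median -0.12). In old males 10 were higher and 6 lower (median 0.10), and in old females 5 were higher and 11 lower (median -0.18). Over the 15 samples that were not divergent, 9 were higher and 7 lower over both sexes (median 0.08), with 12 higher in old males and 6 in old females. An unadjusted p under 0.05 by limma was then found for 4 of the 16 in males, 0 in females and 3 over both sexes. Of all 6943 tested genes it was found for 409, 358 and 492. Over all 21 samples, VLDLR, a lipoprotein receptor, gave -0.53 ± 0.21 (unadjusted p = 0.019, adjusted p = 0.984 by limma), ATF3 gave -0.58 ± 0.34 and MTHFD2, a mitochondrial folate enzyme, gave -0.32 ± 0.22. ATF3 is also an immediate early gene. Its log2 change was -1.30 ± 0.47 in males and 0.13 ± 0.49 in females, and the difference between the sexes was -1.43 ± 0.68 (unadjusted p = 0.0459, adjusted p = 1.0 by limma).

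Of 23 genes of ER-associated degradation, which returns misfolded proteins to the cytosol, 17 were tested, 10 higher and 7 lower (median 0.02), with 11 higher in old males and 8 in old females. With the 6 divergent samples left out, 10 were again higher (median 0.06), with 11 in old males and 11 in old females. Among them UBE2J1 gave 0.49 ± 0.24, SEL1L gave 0.20 ± 0.14 and EDEM2 gave 0.18 ± 0.17 (SE). Of 27 genes of the translocon and signal recognition, through which chains enter the ER, 23 were tested, 6 higher and 17 lower (median -0.10), with 8 higher in old males and 6 in old females. When divergent samples were left out, 13 were higher and 10 lower (median 0.01), with 12 higher in old males and 13 in old females. The direction of this list thus turned. SEC61A1, the channel subunit, gave -0.64 ± 0.33, SSR3 gave 0.39 ± 0.22 and SEC62 gave 0.15 ± 0.11 (SE).

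Covariation was measured on the deviations of each gene from its group mean in the 15 samples that were not divergent, over all 45 pairs of the 10 genes. After adjustment over the 45 pairs, 0 passed the threshold, and 1 had an unadjusted permutation p under 0.05. The median r was 0.04, and 25 pairs were positive. The highest value joined HSPA5 and DNAJB9, with r = 0.71 (permutation p = 0.0403, adjusted p = 0.731) and rho = 0.77 (permutation p = 0.0112, adjusted p = 0.506). Without the 2 samples farthest from the median of HSPA5 their r was 0.63. Old female 3 held the highest level of HSPA5, PDIA6 and DNAJB9 among the 15 samples.

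HSPA5 and PDIA6 had r = 0.69 (permutation p = 0.0650) and rho = 0.53 (permutation p = 0.125), and r was 0.41 without the 2 farthest samples. HSPA5 and HSP90B1 had r = 0.62 (permutation p = 0.0646) and rho = 0.61 (permutation p = 0.0342), and r was 0.58 without them. The adjusted p of both r values was 0.731. The correlation of HSPA5 with the other genes lay between -0.26 and 0.10, at -0.26 for CALR, 0.03 for CANX, -0.19 for PDIA4, -0.07 for XBP1, 0.10 for ATF4 and 0.07 for DDIT3. ATF4 and DDIT3, which lie on the PERK branch, had r = -0.60 (permutation p = 0.0549, adjusted p = 0.731) and rho = -0.55 (permutation p = 0.0716), and r was -0.55 without the 2 farthest.

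Second probe sets gave like values for HSP90B1, at r = 0.65 with HSPA5, and, for 2 of them, for PDIA6, at 0.70 and 0.77. The fourth PDIA6 probe set, 208638_at, gave -0.02. The PDIA4 probe sets differed, with -0.19 by 208658_at and 0.71 by 211048_s_at, and their correlation with each other was -0.02 (permutation p = 0.939). Of the 14 pairs of probe sets assigned to 1 gene, 13 had a positive r, and none passed after adjustment.

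**Figure D3:**
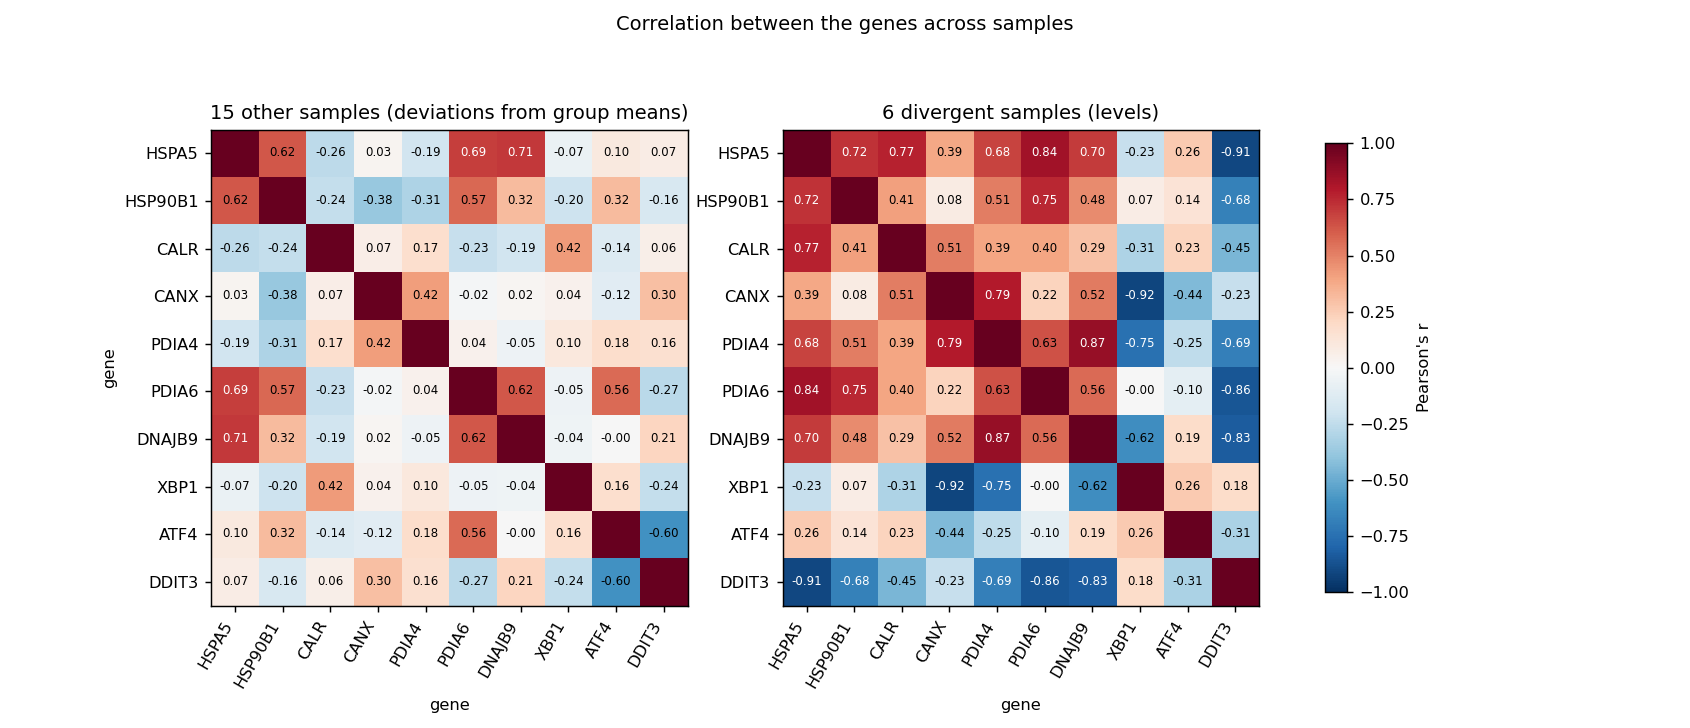
Pearson's r between the 10 genes across samples, on a scale from -1 (blue) to 1 (red). The left panel holds deviations from group means in the 15 samples that are not divergent, the right panel levels in the 6 divergent samples. HSPA5 has r = 0.62 with HSP90B1, 0.69 with PDIA6 and 0.71 with DNAJB9 on the left, and DDIT3 has r = -0.91 with HSPA5 on the right, against 0.07 on the left.

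The 6 divergent samples were taken on their own, on levels, since some groups hold only 1 of them. Of the 45 pairs, 7 had an unadjusted exact p under 0.05 and 0 passed after adjustment. HSPA5 had r = 0.84 with PDIA6 (exact p = 0.0319) and r = 0.72 with HSP90B1 (exact p = 0.0181, rho = 1.0). DDIT3 had r = -0.91 with HSPA5 (exact p = 0.0431, rho = -0.54), -0.86 with PDIA6 (exact p = 0.0236) and -0.83 with DNAJB9 (exact p = 0.0208, rho = -1.0). Without the 2 samples farthest from the median of HSPA5, its r with DDIT3 was -0.57 over 4 samples. The lowest adjusted p of these r values was 0.266. In young female 3, HSPA5, HSP90B1, CALR, PDIA4, PDIA6 and DNAJB9 were the highest of all 21 samples and DDIT3 the lowest. These 6 samples also differ in RNA quality and hybridisation signal, as given above, and the part of these in the correlations was not tested.

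**Figure D4:**
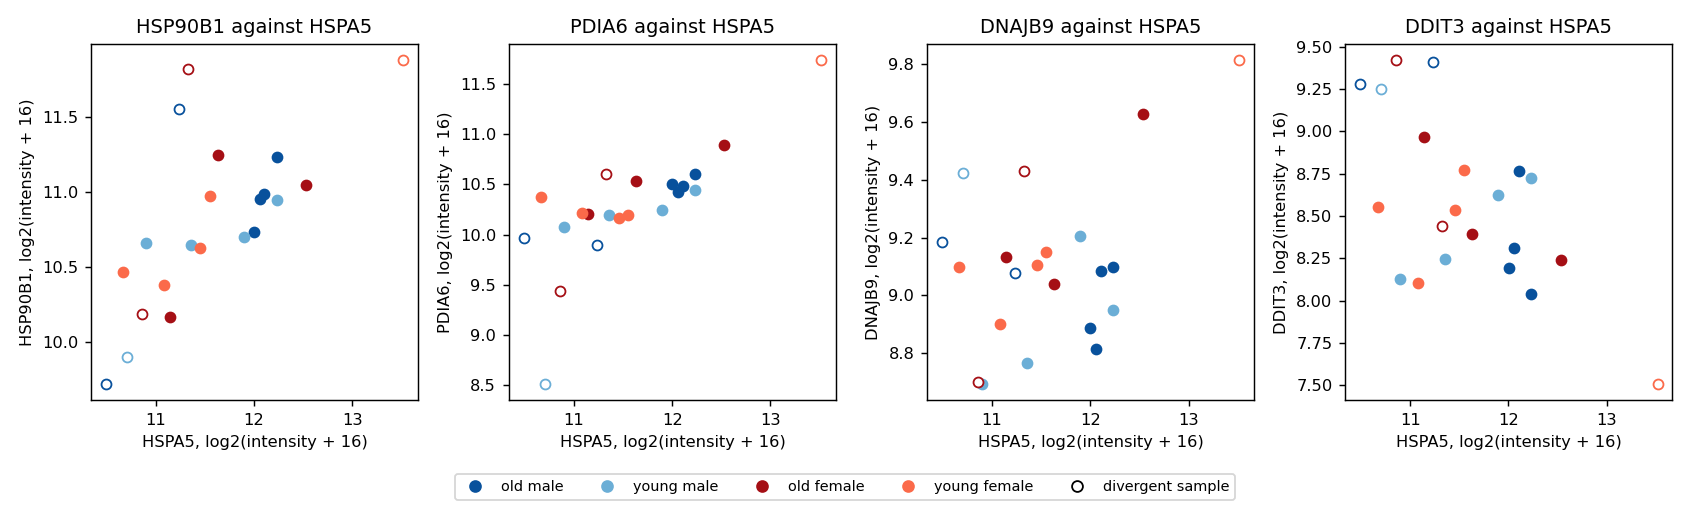
HSP90B1, PDIA6, DNAJB9 and DDIT3 (vertical axes) against HSPA5 (horizontal axes), all as log2(intensity + 16) in the 21 samples, coloured by group with open circles for the 6 divergent samples. Among the open circles DDIT3 is lowest at 7.51 where HSPA5 is highest at 13.52, and the filled circles of DDIT3 lie between 8.04 and 8.97.

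Among 6942 other genes, ranked by r with HSPA5 over the 15 samples, DNAJB9 was 79th, PDIA6 was 102nd and HSP90B1 was 242nd, so 1.12%, 1.45% and 3.47% of genes had a higher r. The ranks of the others ran from 3028 (ATF4) to 5338 (CALR). The median r of all genes was 0.04. The 5 genes most like HSPA5 were TRANK1 (0.89), CDK8 (0.87), FAM98A (0.85), HERC2 (0.85) and ENC1 (0.84). All points share the array scaling. With arrays centred on their medians in place of quantile normalisation the median r of all genes was 0.25, and DNAJB9, PDIA6 and HSP90B1 were 80th, 90th and 188th. CANX was then 722nd with r = 0.66, against 3551st with r = 0.03, and ATF4 was 1668th with r = 0.52, against 3028th with r = 0.10.

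Cell type markers and array measures were set against HSPA5, XBP1 and DDIT3 in the same 15 samples, 27 relations in all, and none passed after adjustment. HSPA5 had r = -0.51 with the mean of 8 adipocyte markers (permutation p = 0.0888, adjusted p = 0.873), and -0.65 without the 2 farthest samples. With the actin ratio it had r = 0.36 (permutation p = 0.420), and -0.16 without the 2 farthest samples. The r of DDIT3 lay between -0.35 (fibroblast markers) and 0.26 (erythrocyte marker).

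Cell type markers were also compared between the age groups, and their part in the age changes of the 10 genes was not tested. Of all tested genes, 48.0% were higher in old males and 46.3% in old females. All 8 measured adipocyte markers (of 12 listed) were higher in old males (median log2 change 1.64), and 4 were higher and 4 lower in old females (median 0.03). Without the divergent samples, 8 were higher in old males (median 1.78) and 8 lower in old females (median -0.67). Their mean log2 level ran from 7.22 to 12.07 in old males and from 6.73 to 10.81 in young males, and from 7.14 to 11.06 in old females and from 8.05 to 11.28 in young females.

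Of 7 measured fibroblast markers (of 9 listed), 5 were lower in old males (median -0.30) and 6 in old females (median -0.45). In males 3 of the 7 had an unadjusted p under 0.05 by limma, all of them lower, against 251 of all 6943 tested genes. Among them the collagen gene COL1A2 gave -0.96 ± 0.23 in males (unadjusted p = 0.000374, adjusted p = 0.692 by limma). Over the 15 samples that were not divergent, 4 were lower in old males (median -0.18) and 4 in old females (median -0.0092). In males 2 of the 7 then had an unadjusted p under 0.05 by limma, against 409 of all 6943 tested genes. The mean level of the fibroblast markers ran from 11.86 to 12.89 in old males and from 12.37 to 13.34 in young males. It ran from 12.07 to 13.67 in old females and from 12.73 to 13.50 in young females. Of 9 smooth muscle markers, 7 were lower in old males (median -0.13) and 8 in old females (median -0.36), and without the divergent samples 6 were lower in old males (median -0.01) and 7 in old females (median -0.24). Of 9 endothelial markers, 8 were higher in old males (median 0.28) and 5 in old females (median 0.02). Of 8 macrophage markers, 5 were higher in old males (median 0.10) and 6 in old females (median 0.32). Leaving out the divergent samples, 4 endothelial markers were higher in old males (median -0.08) and 7 in old females (median 0.04). For macrophage markers 7 were then higher in old males (median 0.17) and 7 in old females (median 0.41). An unadjusted p under 0.05 by limma was also found in males for 2 adipocyte, 2 endothelial and 1 smooth muscle marker, all higher, and for 0 macrophage markers. Leaving out the divergent samples, it was found in males for 3 adipocyte markers and for 0 of the endothelial, smooth muscle and macrophage ones. No marker of these lists passed after adjustment.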

How the data were processed

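The authors deposited 1 linear intensity per probe set and array, for 22277 probe sets. Per the labels' protocols, total RNA was labelled with biotin; the sources used here do not give the summarisation of probes or the scaling of arrays. The 62 control probe sets were set aside. Deposited intensities were converted to log2(intensity + 16), which understates changes of dim genes, and quantile normalised. Probe sets whose mean reached the median of all means (7.60) were tested. Of 22215 probe sets, the annotation gives 19064 1 symbol, 1043 several and 2108 none.

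Groups came from the sample titles. Arrays with a correlation of deviations above 0.6 were averaged, and arrays with a median correlation under 0.85 were called divergent. Both limits were chosen after values were seen. The averaged pairs had correlations of deviations of 0.88 (old females 1 and 4), 0.87 (young females 3 and 4) and 0.79 (young males 3 and 4). The next highest pair, young female 5 with young male 2, had 0.57 and was not averaged. A mean per group was fitted in limma 3.58.1 (R 4.3.3) with an intensity trend, and p-values were adjusted by Benjamini-Hochberg within each of 4 contrasts at 0.05. Errors of changes are standard errors. Correlations used 2-sided permutations within groups (100000 resamples, numpy 2.4.6 and scipy 1.17.1). In the divergent samples levels and exact permutation were used, which departs from the planned deviations. The fit was also run on simulated data with independent noise in each probe set and no divergent samples. That setting differs from these data, so it does not show what the fit can detect here. Alternatives covered scaling, pseudocount, filter, trend, weights, replicates and samples. Precision is limited by the number of arrays.

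The members and the gene lists were chosen with earlier results of these data known. All members were named, with levels from the brightest probe set, plus the 3 genes per list with the smallest p and the 5 genes most like HSPA5 and XBP1. CALR, CANX and PDIA4 were given as group means and SD. The other members were given per sample, except in old males, where the lowest, median and highest values were given. ATF3 and EIF2S1 in single sexes and COL1A2 were picked, and the list counts without the divergent samples added, after the values were seen.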

Additional observations from a re-analysis of the deposited data

Results flagged for a closer look

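In groups of 5 or 6 samples, a sample was picked out where its gap to the nearest other was large against the range of the group (Dixon's 95% limit). This was so in 12 of 76 groups (15.8%), against about 1 in 20 by chance and against 10.5% of the groups over all tested probe sets. The 12 cases came from 5 samples, 3 of them divergent, and the divergent ones made up 10 of the 12 cases (83.3%), against 79.9% of such cases over all tested probe sets. Probe sets of 1 gene are not independent here.

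Young male 1 was low by 5 probe sets. For HSP90B1 (216449_x_at) it had 9.90, with the other young males at 10.65 or above, and for CALR (200935_at) 6.54, with the others at 9.35 or above. For CANX (208852_s_at) it had 10.30, with the others at 11.46 or above. For PDIA6 it had 8.51 by 216640_s_at and 7.73 by 207668_x_at, with the others at 10.08 or above and at 9.60 or above.

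Young female 3 was high by 4. For PDIA6 it had 11.74 by 216640_s_at, 11.63 by 208639_x_at and 11.20 by 207668_x_at, and the other young females reached at most 10.37, 10.26 and 9.86 by these probe sets. For DNAJB9 it had 9.81, and the others reached at most 9.15.

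Old female 6 was high for PDIA4 at 9.51, above 9.04 in the next. Old male 6, which was not divergent, was low for XBP1 at 7.63, below 8.57 in the next. Old female 5, also not divergent, was low for ATF4 at 11.26, below 11.82 in the next.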

How the results depend on the processing

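Across 33 settings and 4 contrasts (132 fits), 0 fits called a probe set of the 10 genes, and the smallest adjusted p was 0.532 by limma. Of 440 values under alternatives other than leaving out a replicate, 51 changed sign, all of them estimates that pass no test. The number of arrays and their scaling limit what can be seen, and the cause of each change was not tested. Over all probe sets, the count called in males was 2, and it was 0 with median-centred arrays, with a pseudocount of 64, without a filter and without the trend, 25 with array weights (17 higher), 1 with the actin ratio as covariate and 0 to 2 when a replicate was left out. In the mean of both sexes it was 0, and 1 without the divergent samples or with the replicate block. Called pairs of genes numbered 0, and 5 over all 21 samples and 1 with median-centred arrays. The 5 joined HSPA5 with PDIA6 (r = 0.79, adjusted permutation p = 0.00135), HSP90B1 (0.68, 0.0333) and DDIT3 (-0.66, 0.0333). They also joined PDIA6 with DDIT3 (-0.79, 0.00247) and HSP90B1 (0.67, 0.0325), and the 21 samples include the 6 divergent ones. Over the 21, HSPA5 had r = 0.46 with DNAJB9, and 0.04 without the 2 farthest samples. The 1 joined CANX with PDIA6 (0.73, 0.0441).

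The log2 changes that turned sign were the following. Median-centred arrays gave CANX -0.095 in males, HSP90B1 -0.033 in females and HSPA5 -0.030 over both sexes. The deposited scale gave CANX -0.055 in males, DNAJB9 0.038 in females, and PDIA4 0.024 and DNAJB9 0.050 over both. All 24 arrays taken singly gave DNAJB9 -0.016 in males, HSP90B1 -0.081 in females, and HSPA5 -0.13 and PDIA6 -0.0051 over both. The actin covariate gave CANX -0.0082 in males, and CANX -0.00047 and XBP1 0.16 in the sex difference.

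Without the 6 divergent samples the values were CANX -0.039, ATF4 0.064 and DDIT3 -0.10 in males, and HSPA5 0.58, CALR 0.066, CANX 0.22, PDIA6 0.31, DNAJB9 0.20 and XBP1 -0.090 in females. They were CALR 0.12, CANX 0.091, PDIA4 0.010, DNAJB9 0.13 and DDIT3 -0.030 over both, and HSPA5 -0.076, CANX -0.26, PDIA6 -0.045, DNAJB9 -0.14 and XBP1 0.19 in the sex difference. Array weights gave CANX -0.019, ATF4 0.052 and DDIT3 -0.037 in males, and HSPA5 0.20, CALR 0.066, CANX 0.093, PDIA6 0.12 and DNAJB9 0.065 in females. They gave CALR 0.15, CANX 0.037, PDIA4 0.045 and DNAJB9 0.069 over both, and CANX -0.11 and XBP1 0.028 in the sex difference.

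With the replicate block the values were CANX -0.011, DNAJB9 -0.015 and DDIT3 -0.049 in males and CALR 0.023 over both. Deviations of 30 same-numbered pairs of samples correlated from -0.42 to 0.51 (median 0.06). Those of 135 other pairs correlated from -0.50 to 0.51 (median -0.01). These spans overlap, so whether the numbers pair the samples cannot be told from them.

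Leaving out 1 replicate at a time, the changes in females ran from -0.41 to 0.31 for HSPA5, -0.20 to 0.28 for HSP90B1, -0.27 to 0.044 for CALR, -0.13 to 0.048 for CANX, -0.34 to 0.099 for PDIA6 and -0.14 to 0.12 for DNAJB9. In males they ran from -0.088 to 0.045 for CANX, -0.062 to 0.12 for DNAJB9 and -0.076 to 0.24 for DDIT3. Over both sexes they ran from -0.073 to 0.29 for HSPA5, -0.067 to 0.088 for CALR, -0.066 to 0.025 for CANX, -0.066 to 0.086 for PDIA4, -0.065 to 0.26 for PDIA6 and -0.060 to 0.069 for DNAJB9. In the sex difference they ran from -0.040 to 0.68 for HSPA5, -0.063 to 0.13 for CANX, -0.11 to 0.15 for DNAJB9, -0.26 to 0.084 for XBP1 and -0.087 to 0.12 for ATF4.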

Other observations

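Other genes of the secretory pathway were also set against HSPA5 over the 15 samples that were not divergent, as a description with no test. An r above 0.5 was found for 6 of 26 other chaperones and folding enzymes (23.1%), 1 of 9 sensors and their processing enzymes (11.1%), 0 of 16 targets of ATF4 and CHOP, 3 of 17 genes of ER-associated degradation (17.6%) and 3 of 23 genes of the translocon and signal recognition (13%), against 9.87% of all 6942 genes. The highest were FKBP14, a prolyl isomerase that acts on collagen (0.76), SPCS2, a signal peptidase subunit (0.74), CREB3 (0.71), SRP54 (0.64), DAD1 (0.62), SDF2L1 (0.61) and HERPUD1 (0.57). The lowest of each list, in the same order, were PRKCSH, a glucosidase subunit (-0.74), ERN1 (IRE1, -0.64), AARS1 (-0.56), OS9 (-0.28) and SSR3 (-0.40). The points share the array scaling.

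Among the other members, the highest r of XBP1 was 0.42, with CALR, and 7.33% of all genes had a higher one. The genes most like it were SEPTIN9 (0.95), PLAUR (0.86), RBMX2 (0.84), ITGA8 (0.79) and ZNF862 (0.79).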
